A study of Homo sapiens with 44 samples.

Results

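The comparison described here sets 5 culture wells of differentiating H1 cells at day 11 against 5 wells at day 9, the 2 samplings that stand on either side of a change of medium supplement. These 10 libraries were chosen from the 44 of the series by the day in their labels and by their columns in the deposited count table, namely wells 1, 2, 5, 6 and 7 at day 11 and wells 1, 2, 3, 4 and 10 at day 9. All 22955 genes with enough counts, of 60499 in the table, were compared. The comparison was then repeated in the 3 day 11 and 4 day 9 wells whose RNA integrity number (RIN, a score that ends at 10 for intact RNA) was at least 9, called the high-RIN wells.

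H1 is an established human embryonic stem cell line, and RNA of single wells was sequenced as the cells were driven towards heart muscle. Every well compared here had stood on laminin LN-521 together with LN-221. All had received CHIR99021, which switches Wnt signalling on by blocking the kinase GSK3, at day 0 and IWP2, an inhibitor of Wnt production, at day 3. Day 9 wells were in RPMI 1640 with B27 lacking insulin, and day 11 wells were in the same base medium with CTS B-27, brought in after day 10. The series text writes B21 for both supplements, and the labels do not list what CTS B-27 contains. The new supplement and 2 more days of culture came together, so the labels alone cannot separate them, and no day 11 well in the old supplement was analysed here. The data come from 1 cell line, and nothing in the labels says that the wells came from separate differentiations. The p values therefore measure a spread between wells, which may be technical. For the gene tests this spread was estimated over all 44 libraries of the series, not over these wells alone. In bulk RNA, fewer cells of a type and less RNA per cell cannot be told apart.

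Insulin binds a receptor tyrosine kinase that passes its signal through the IRS adaptor proteins, PI3 kinase and AKT. Active AKT keeps FOXO transcription factors out of the nucleus, raises glucose uptake and favours the synthesis of lipid and protein. In protocols for heart muscle insulin is withheld early because it works against cardiac mesoderm, and it is given back once the cells are committed, when young cardiomyocytes build sarcomeres and calcium stores.

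Total estimated counts in the 10 libraries ran from 18014200 to 31323300, with the lowest totals, 18014200 and 19060100, in day 11 wells 1 and 2. Levels are given as CPM, the counts scaled to a common library total, and 3 counts, taken as the floor, were 0.0976 to 0.143 CPM. They carry edgeR's TMM scaling between libraries. RIN was 9.7, 9.3, 8.9, 10 and 9.8 at day 9 (wells 1, 2, 3, 4 and 10) and 8.6, 8, 9.5, 9.2 and 9.4 at day 11 (wells 1, 2, 5, 6 and 7), and values by well are always given in this order. Sequencing lane 3 held a day 11 library and none of day 9. Protein-coding genes held 84.5 and 88.2% of the counts in day 9 wells 3 and 4 and 86.01 and 85.3% in day 11 wells 1 and 2, and from 72.2 to 78.4% in the other 6.

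Wells 1 and 2 of day 11 stood apart from wells 5, 6 and 7. Over the 12062 genes with a mean of at least 5 CPM, the first principal component of log2(CPM + 1) carried 49.7% of the variance and placed them at 43.5 and 53.1. Wells 5, 6 and 7 lay at -34.01, -30.4 and -28.3, and the day 9 wells lay between, from -14.6 to 16.1. The second component, with 25.5%, separated the days, with day 9 from 5.44 to 33.7 and day 11 from -24.2 to -15.3. Within day 11, 417 of these genes were more than 2-fold higher in both wells 1 and 2 than in each of the other 3, and 619 were more than 2-fold lower. Of the measured endoderm and liver genes 15 of 22 were among the higher, and so were 25 of 31 mitosis genes. Of the sarcomere genes 17 of 31 were among the lower, with 0 among the higher.

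The sums of the marker lists show the same division. Endoderm and liver genes summed to 3524, 9993, 3160.0, 1836 and 1371 CPM at day 9 and to 7821, 13989, 649, 640.1 and 501 CPM at day 11. Sarcomere genes summed to 27263, 15959, 33725, 27925 and 35334 CPM at day 9 and to 20458, 12608, 42657, 45779.9 and 39577 CPM at day 11. At day 11 the wells with the highest endoderm sum had the lowest sarcomere sum and the lowest RIN, and at day 9 well 2 had the highest endoderm and the lowest sarcomere sum at a RIN of 9.3. The parts of RIN, of endoderm content and of the well itself cannot be told apart within day 11, and the results below are given with all wells and with the wells of RIN of at least 9. The median SD of log2(CPM + 0.5) over these 12062 genes was 0.200 among the 5 day 9 wells, 0.239 among the 5 day 11 wells and 0.0996 among day 11 wells 5, 6 and 7.

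**Figure D1:**
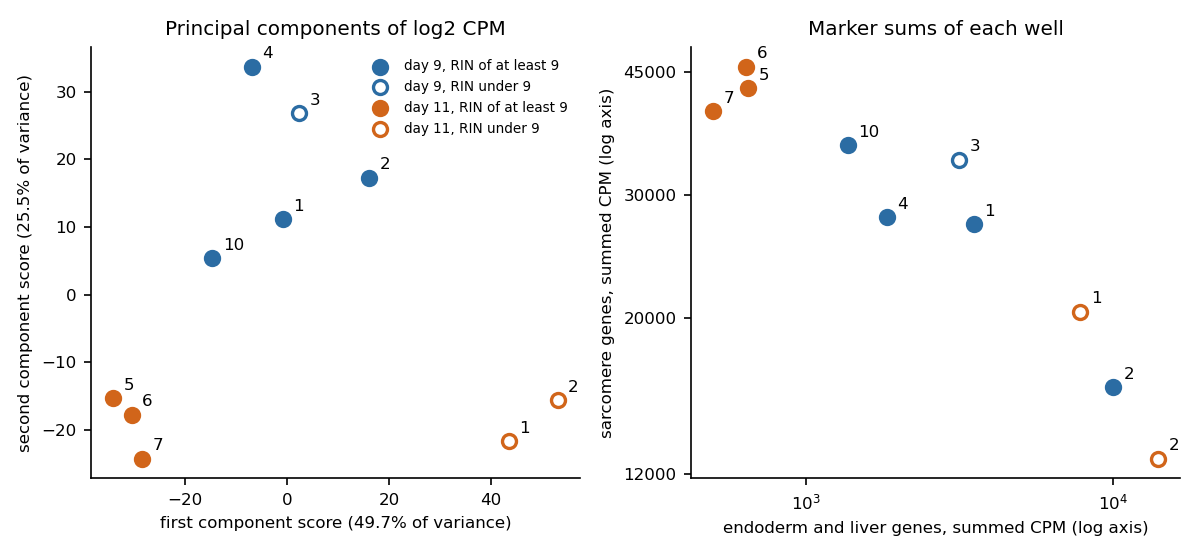
Left, scores of the 10 wells on the first and second principal component of log2 CPM; right, summed CPM of endoderm and liver genes (log axis) against summed CPM of sarcomere genes (log axis). Numbers are well numbers, blue is day 9, orange is day 11, and open circles have a RIN under 9. Day 11 wells 1 and 2 sit far from wells 5, 6 and 7 on the first component and at the low sarcomere end on the right.

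Between day 9 and day 11 the Notch genes HES1, DLL1 and LFNG, the apelin receptor ligand APELA, the Wnt target SP5, the BMP target ID1 and the receptor KIT fell, from 2.59-fold for ID1 to 4.97-fold for APELA. The cardiac genes TECRL and LRRC10, the factor TBX18, the lactate dehydrogenase LDHA and the IGF-binding protein IGFBP5 rose, from 2.07-fold for LDHA to 4.12-fold for LRRC10. Called genes changed at least 2-fold and had a p under 0.05 in edgeR's quasi-likelihood test after Benjamini-Hochberg adjustment, and "rose" and "fell" below mean adjusted p under 0.05 at any fold. With all wells 375 genes were called (1.63% of those tested), 91 higher (0.396%) and 284 lower (1.24%). At any fold 778 (3.39%) passed, of which 275 (1.2%) rose and 503 (2.19%) fell. In the high-RIN wells the calls were 635 (2.77%), 170 higher (0.741%) and 465 lower (2.03%). At any fold 1003 (4.37%) passed there, of which 393 (1.71%) rose and 610 (2.66%) fell. Of the 375 calls, 372 had the same direction in the wells of RIN of at least 9 and 224 were called again. Without day 11 wells 1 and 2, and with all 5 day 9 wells kept, 862 genes were called, 240 higher and 622 lower, and 268 of the 375 were among them. Both smaller sets consist of wells that also gave the 375 calls, so agreement with these calls is not an independent check. The same holds for the values given below for single genes with RIN of at least 9.

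The median log2 change of all tested genes was 0.04 with all wells and -0.02 with RIN of at least 9. CPM ranges of the 5 and 5 wells did not overlap for 591 genes higher at day 11 (2.57%) and 851 lower (3.71%), 6.28% in all. Of the calls 24.3% were higher, against 61.5% of the 13 genes called by limma on log2(TPM + 1), a unit scaled for transcript length. Protein-coding genes held from 15.6 to 36.5% of the TPM of the 10 wells, and TPM were used without further scaling between libraries. The part of this in the difference was not tested.

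Of the 67 genes named below that passed with all wells, 44 passed with any 1 of the 10 wells left out. FOS, LAMB1 and SALL4 missed the adjusted p threshold without day 9 well 4 (adjusted p = 0.13, 0.058 and 0.053). TBX18 missed it without day 9 well 3 or 4 (0.0502 and 0.0533), and KIF12 without day 9 well 4 or day 11 well 7 (0.058 and 0.062). ACADM, ACTG2, ANK2, CACNA2D1, CDH5, CRELD2, DPPA4, FABP3, FOSB, IRS1, IRX4, NDUFS1, NEBL, RDH10, TBX1, TRIM63, TXNIP and WARS each missed it in 4 or more of the 10 removals, with the largest adjusted p of each gene between 0.079 and 0.22. With only days 9 and 11 in the fit, 49 of the 63 genes named by rule that passed with all wells did so again, and the other 14 were ACADM, ACTG2, CACNA2D1, CRELD2, DPPA4, FABP3, IRX4, LRRC7, MUSTN1, NEBL, SEC11C, TRIM63, TXNIP and WARS. Under limma on log2(TPM + 1), 6 of the 63 passed, namely ABAT, DGKB, INHA, LRRC10, PLPPR1 and TECRL, and 57 did not, HES1, APELA, LDHA, DLL1, TBX3 and FN1 among them. On log2(TPM + 0.1), 5 passed, namely ABAT, HSPA6, LRRC10, PLPPR1 and SORCS3, and 58 did not, TECRL among them. The annotated spans of ABAT, ACADM, ANK2, CACNA1C, CACNA2D1, CACNB2, CENPA, CRELD2, DLL1, DOCK8, DUSP6, ENO3, ERBB3, ESRRA, ETFDH, ETV4, FOSB, FOXA1, GPI, GRB14, HBE1, HEY2, HNF4A, HNRNPM, IGF2, INHA, IRX4, KIF23, LAMA2, LAMB1, LRRC7, MEF2A, MUSTN1, NDUFS1, PGAM2, RDH10, SESN3, SLC2A4, SLC8A1, SOD2, TBX1, TNNI3, TNNT2, TUBB3 and WARS overlap another tested gene, and since the strand setting of the counting is not given, their reads cannot be told apart from it.

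**Figure D2:**
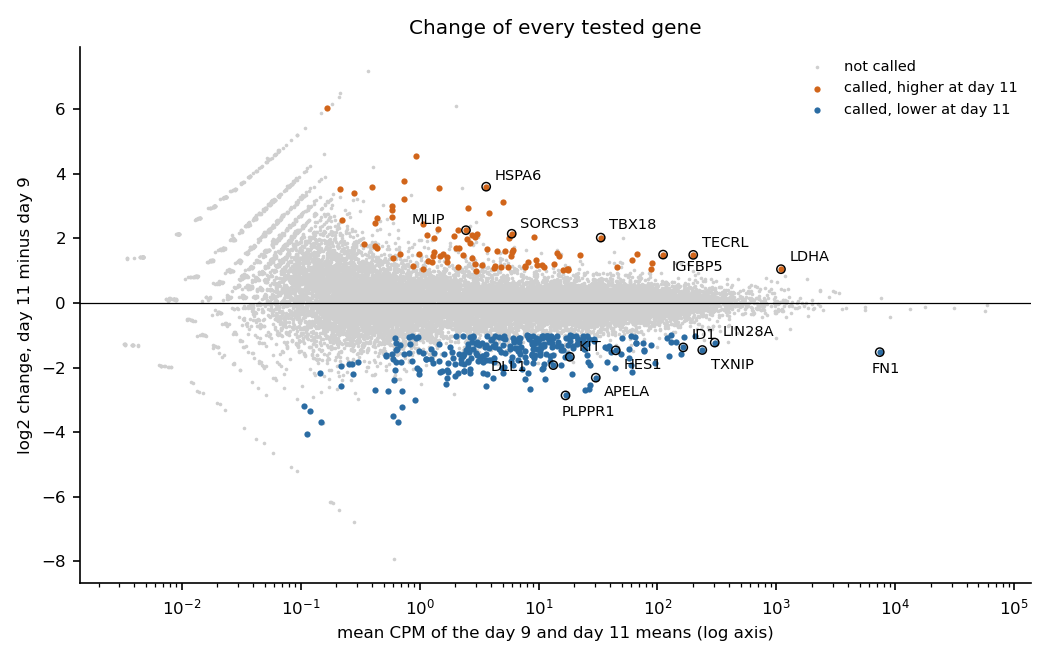
Log2 change of each of the 22955 tested genes, day 11 minus day 9, against the mean of the 2 day means in CPM (log axis). Orange and blue points are the 91 genes called higher and the 284 called lower at day 11, grey points were not called, and circled genes are described in the text.

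TECRL encodes an endoplasmic reticulum protein of heart muscle in which variants cause stress-induced arrhythmia, and it lies on chr4:64275257-64409468, minus strand, ENSG00000205678 (GRCh38). It stood at 151, 125, 87.7, 57.4 and 103 CPM at day 9 and at 363, 254, 232, 307 and 318 CPM at day 11. Every day 11 well exceeded every day 9 well, wells 1 and 2 of day 11 included. TECRL rose 2.81-fold (log2 change 1.49 ± 0.28 (SE), adjusted p = 0.0018; with RIN of at least 9, 1.39, adjusted p = 0.016).

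TNNI3 encodes the troponin I of adult heart muscle (chr19:55151767-55157773, minus strand, ENSG00000129991) and behaved differently. Its level was 26.6, 16.4, 17.1, 21.5 and 47.1 CPM at day 9 and 13.3, 7.29, 86.6, 84.3 and 114 CPM at day 11. Wells 5, 6 and 7 of day 11 lay above all day 9 wells, and wells 1 and 2 lay below all of them. With all wells the log2 change was 1.25, adjusted p = 0.12, which missed the threshold. In the wells of RIN of at least 9 TNNI3 rose (log2 change 1.77, adjusted p = 0.0037).

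HES1 encodes a repressor that Notch signalling switches on (chr3:194136145-194138732, plus strand, ENSG00000114315). It stood at 57.6, 60.7, 77.6, 73.2 and 58.4 CPM at day 9 and 21.4, 20.8, 30.5, 23.8 and 22.03 CPM at day 11, a gap that no well crossed. HES1 fell 2.76-fold (log2 change -1.47 ± 0.20 (SE), adjusted p = 3.7e-05; with RIN of at least 9, -1.29, adjusted p = 0.0018).

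APELA encodes a short secreted ligand of the apelin receptor with a part in early heart formation (chr4:164877004-164898965, plus strand, ENSG00000248329). Its level was 35.4, 24.3, 66.5, 88.96 and 37.1 CPM at day 9 and 12.8, 9.64, 10.1, 9.66 and 8.67 CPM at day 11. The day 9 wells were spread over a wide range, with wells 3 and 4 the highest, while the day 11 wells lay close together below all of them. APELA fell 4.97-fold (log2 change -2.31 ± 0.47 (SE), adjusted p = 0.0036; with RIN of at least 9, -2.30, adjusted p = 0.024).

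**Figure D3:**
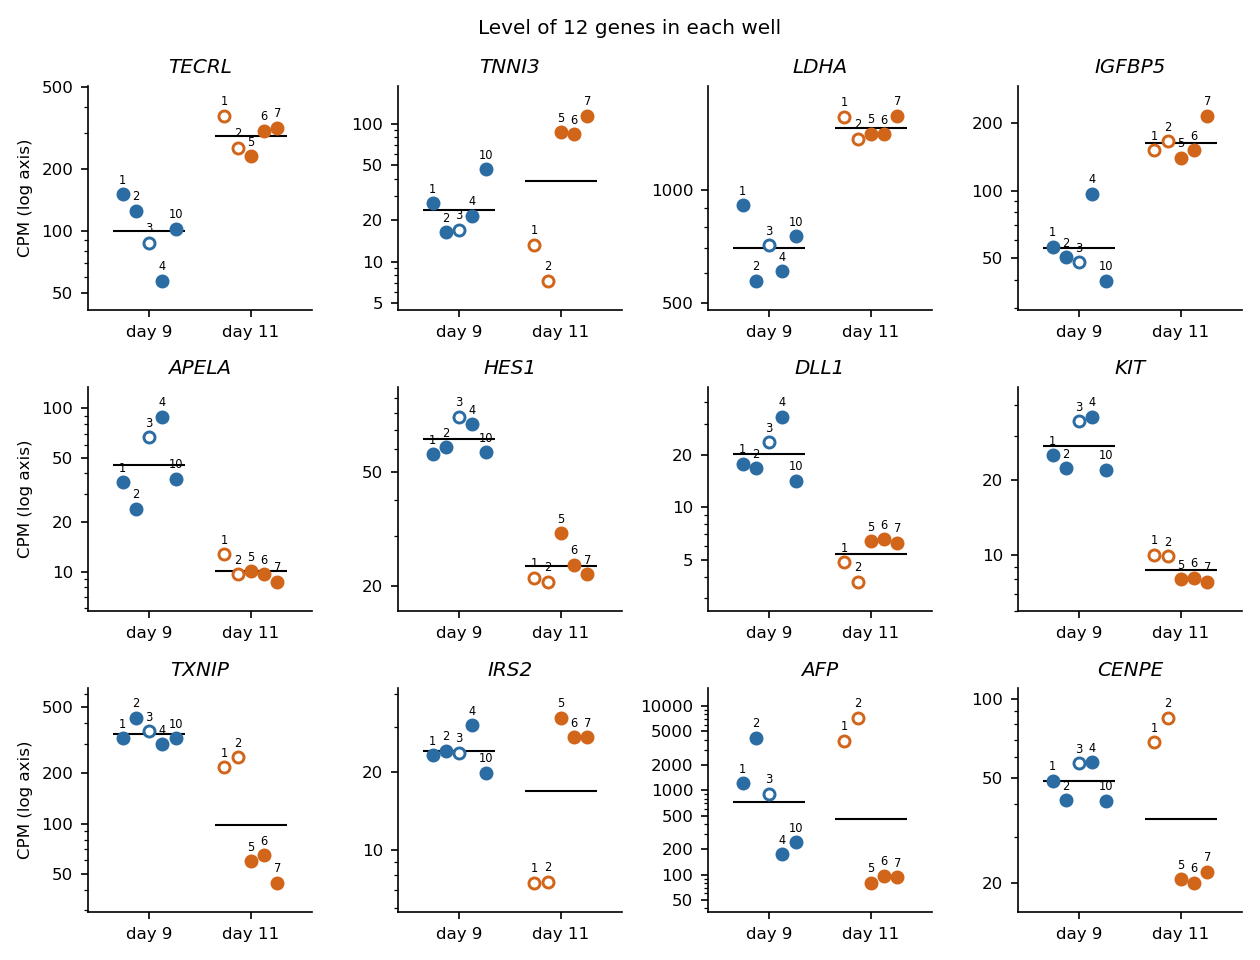
CPM (log axis) of 12 genes in each well at day 9 (blue) and day 11 (orange); numbers are well numbers, open circles have a RIN under 9 and bars are geometric means over the 5 wells. TECRL, LDHA, IGFBP5, APELA, HES1, DLL1 and KIT separate the days in every well, whereas TNNI3, IRS2, AFP and CENPE split day 11 into wells 1 and 2 against wells 5, 6 and 7.

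The 10 largest rises among called protein-coding genes with a mean of at least 5 CPM at the higher day and ranges that did not overlap were those of HSPA6, SORCS3, LRRC10, TBX18, INHA, STMN2, SEC11C, ABAT, IGFBP5 and TECRL. HSPA6, a heat-inducible chaperone of the HSP70 family, stood at 0.0758, 0.370, 0.590, 1.14 and 0.556 CPM at day 9 and 2.53, 1.52, 15.2, 8.77 and 5.59 CPM at day 11. Its day 9 value in well 1 is under 3 counts, and wells 5, 6 and 7 were again the highest of day 11. HSPA6 rose with a log2 change of 3.60 ± 0.73 (SE), adjusted p = 0.0034, and 4.18, adjusted p = 0.0022 with RIN of at least 9. The size of this fold rests on very low day 9 counts, and HSPA6 has a near-identical copy with which reads can be shared.

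SORCS3, a sorting receptor of the VPS10 family, rose from 3.03, 2.29, 1.81, 1.72 and 2.14 CPM to 3.53, 3.41, 13.7, 13.4 and 14.5 CPM (log2 change 2.14 ± 0.33 (SE), adjusted p = 0.00016). LRRC10, a leucine-rich repeat protein made in cardiomyocytes, stood at 4.97, 4.21, 2.28, 1.14 and 5.56 CPM at day 9 and 8.01, 6.46, 14.2, 16.9 and 28.8 CPM at day 11 (log2 change 2.04 ± 0.38 (SE), adjusted p = 0.0013). INHA, the alpha subunit of inhibin, stood at 2.77, 1.65, 2.28, 1.82 and 2.78 and 3.20, 3.55, 13.6, 11.7 and 13.3 CPM (log2 change 2.01 ± 0.41 (SE), adjusted p = 0.0037). For all 3 genes wells 1 and 2 of day 11 lay only a little above day 9 and wells 5, 6 and 7 far above it. The log2 change with RIN of at least 9 was 2.59 for SORCS3, 2.34 for LRRC10 and 2.51 for INHA, each still past the threshold.

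TBX18, a T-box factor of the sinus horn and the epicardium, rose in every day 11 well. It stood at 18.8, 25.02, 8.34, 8.07 and 5.56 CPM at day 9 and 45.4, 50.6, 45.9, 46.5 and 79.3 CPM at day 11 (log2 change 2.02 ± 0.48 (SE), adjusted p = 0.012; with RIN of at least 9, 2.00, adjusted p = 0.037). ABAT, the enzyme that breaks down the transmitter GABA, rose from 35.2 ± 11.6 to 101 ± 27.7 CPM (SD, n = 5 and 5; log2 change 1.52, adjusted p = 0.00039). IGFBP5, a secreted binding protein for insulin-like growth factors, is described with that pathway. STMN2, a microtubule-destabilising protein best known from neurons, rose from 1.77 ± 0.389 to 5.65 ± 1.89 CPM (SD, n = 5 and 5; log2 change 1.68, adjusted p = 0.0011).

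SEC11C, a catalytic subunit of the signal peptidase, rose with all wells, and missed the threshold with RIN of at least 9. It stood at 3.00, 2.93, 2.56, 2.96 and 3.46 CPM at day 9 and 17.2, 15.1, 3.75, 4.36 and 4.35 CPM at day 11. The log2 change was 1.58, adjusted p = 0.0017 with all wells and 0.43, adjusted p = 0.35 with RIN of at least 9.

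The 10 largest falls under the same conditions were those of PLPPR1, SPTSSB, DOCK8, LRRC7, DGKB, MUSTN1, APELA, ISX, KIF12 and TNR. PLPPR1, a membrane protein related to lipid phosphatases that is known from growing neurites, stood at 29.5, 19.7, 39.6, 32.7 and 26.8 CPM at day 9 and 3.86, 4.24, 5.47, 4.27 and 2.56 CPM at day 11. It was low in all 5 day 11 wells to a like degree and fell 7.27-fold (log2 change -2.86 ± 0.25 (SE), adjusted p = 1.6e-09). SPTSSB, a small subunit of the enzyme that starts sphingolipid synthesis, stood at 30.6, 21.8, 60.2, 73.3 and 42.7 and 10.6, 9.92, 6.75, 5.47 and 3.07 CPM (log2 change -2.68 ± 0.44 (SE), adjusted p = 0.00027). Its day 9 level was highest in wells 3 and 4, as with APELA, and these 2 wells also had the highest protein-coding share of day 9. The same wells were highest at day 9 for PLPPR1, HES1, DLL1, LFNG, KIT, TBX3, FN1, FOXA1, FOXA2 and HHEX, among others. They were not for ID1, SP5, LIN28A, VWF and TXNIP, which also fell. The part of that share in these falls was not tested.

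DOCK8, an activator of the small GTPase CDC42, fell from 14.7 ± 5.46 to 2.35 ± 0.842 CPM (SD, n = 5 and 5; log2 change -2.65, adjusted p = 0.00018). DGKB, a diacylglycerol kinase, fell from 19.1 ± 6.15 to 3.69 ± 0.805 CPM (log2 change -2.37, adjusted p = 0.00018). TNR, a tenascin of the extracellular matrix, fell from 13.4 ± 4.80 to 3.01 ± 1.39 CPM (log2 change -2.16, adjusted p = 0.0063). The log2 change was -2.58 for LRRC7, a scaffold protein of synapses, and -2.32 for MUSTN1, a small nuclear protein of muscle and skeleton. It was -2.20 for the intestinal homeobox gene ISX and -2.20 for the kinesin KIF12. All 10 fell also with RIN of at least 9, where the log2 change was -2.73 for PLPPR1 and -3.64 for LRRC7. With only days 9 and 11 in the fit LRRC7 and MUSTN1 missed the threshold (adjusted p = 0.051 and 0.061).

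Outside that rule and chosen after their values were seen, KIT, the receptor of stem cell factor, was low in every day 11 well. It stood at 25.1, 22.3, 34.3, 35.8 and 21.99 CPM at day 9 and 10.1, 9.92, 8.03, 8.15 and 7.84 CPM at day 11 (log2 change -1.67 ± 0.18 (SE), adjusted p = 7.7e-07). MLIP, a lamin-interacting protein of muscle, rose from 0.848 ± 0.205 to 4.06 ± 1.11 CPM (SD, n = 5 and 5; log2 change 2.25, adjusted p = 1.5e-05). DRD1, a dopamine receptor, rose from 0.590 ± 0.302 to 4.56 ± 1.28 CPM (log2 change 2.96, adjusted p = 0.00018). Both rose also with RIN of at least 9.

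Few genes of insulin and IGF signalling passed the test. All 35 were tested, 1 rose and 2 fell, with a median log2 change of -0.15 (-0.09 with RIN of at least 9), beside the 1.2% and 2.19% of all genes that rose and fell. The same shares are the background for the counts of every list below, and in the high-RIN wells they were 1.71% and 2.66%. A single member in a list of about this size is near them. TECRL, HES1, APELA and TNNI3 were given beforehand as markers of this comparison. Counts of the lists that hold these genes therefore include a gene already chosen. IGFBP5 stood at 56.4, 50.5, 48.1, 96.9 and 39.7 CPM at day 9 and 151, 166, 140.0, 151 and 215 CPM at day 11 and rose in all 5 wells (log2 change 1.498 ± 0.34 (SE), adjusted p = 0.0085; with RIN of at least 9, 1.47, adjusted p = 0.032). GRB14, an adaptor that inhibits the insulin receptor, stood at 14.6, 10.6, 19.2, 19.00 and 12.2 and 5.49, 3.92, 7.27, 7.39 and 5.87 CPM and fell (log2 change -1.33 ± 0.22 (SE), adjusted p = 0.00039; with RIN of at least 9, -1.04, adjusted p = 0.018).

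IRS1, a main adaptor below the insulin receptor, stood at 132, 127, 154, 199 and 146 CPM at day 9 and 79.1, 83.1, 100.3, 101 and 87.3 CPM at day 11. The ranges did not overlap, and IRS1 fell with all wells (log2 change -0.75 ± 0.22 (SE), adjusted p = 0.046) but missed the threshold with RIN of at least 9 (log2 change -0.65, adjusted p = 0.19). IRS1 missed it also with any 1 of the 10 wells left out, at an adjusted p of up to 0.174. The same held with RIN or lane as a covariate. IRS2, the other adaptor and a known FOXO target, stood at 23.2, 24.2, 23.8, 30.4 and 19.9 CPM at day 9 and 7.49, 7.56, 32.5, 27.2 and 27.3 CPM at day 11. Wells 1 and 2 of day 11 lay far below every day 9 well, and wells 5, 6 and 7 lay within the day 9 range or just above it. The log2 change of IRS2 was -0.25, adjusted p = 0.83 with all wells and 0.25, adjusted p = 0.88 with RIN of at least 9.

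INSR, the insulin receptor, was likewise lowest in day 11 wells 1 and 2. It stood at 99.5, 89.9, 125, 142 and 88.5 CPM at day 9 and 44.5, 46.9, 103, 107 and 82.2 CPM at day 11 (log2 change -0.50, adjusted p = 0.32). IGF1R, the receptor of insulin-like growth factors, was 135 ± 35.1 CPM at day 9 and 104 ± 29.4 CPM at day 11 (SD, n = 5 and 5; log2 change -0.38, adjusted p = 0.48). IGF2, a growth factor made by embryonic cells, was 1172 ± 690.3 and 1014 ± 282 CPM (log2 change -0.21, adjusted p = 0.86). None of INSR, IGF1R and IGF2 passed the threshold in either set of wells.

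Genes that FOXO factors are known to activate changed in both directions. Of 20 listed genes 19 were tested, 1 rose and 3 fell, with a median log2 change of -0.06. Among the high-RIN wells, 3 rose and 4 fell, with a median of 0.06. TXNIP, which binds thioredoxin and restrains glucose uptake, stood at 325, 433, 360.4, 300.1 and 325 CPM at day 9 and 218, 250.2, 59.3, 64.6 and 44.02 CPM at day 11. All day 11 wells lay below day 9, wells 5, 6 and 7 by far the most. TXNIP fell with all wells (log2 change -1.46 ± 0.42 (SE), adjusted p = 0.045) and with RIN of at least 9 (log2 change -2.63, adjusted p = 0.00093), but missed the threshold with only days 9 and 11 in the fit (adjusted p = 0.11).

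TRIM63, a muscle ubiquitin ligase, stood at 6.90, 4.38, 8.22, 6.38 and 14.4 CPM at day 9 and 8.54, 5.53, 31.7, 29.2 and 33.9 CPM at day 11. Its rise rested on wells 5, 6 and 7 (log2 change 1.44, adjusted p = 0.036; with RIN of at least 9, 1.99, adjusted p = 0.0021). BCL6, a transcriptional repressor, fell from 38.4 ± 11.1 to 12.5 ± 1.14 CPM (SD, n = 5 and 5; log2 change -1.62 ± 0.21 (SE), adjusted p = 2.4e-05). ERBB3, a neuregulin receptor, fell from 92.9 ± 13.3 to 39.3 ± 6.05 CPM (log2 change -1.24, adjusted p = 0.0029). With RIN of at least 9 BCL6 and ERBB3 fell too, FBXO32, another muscle ubiquitin ligase (log2 change 1.21, adjusted p = 0.015), and SOD2, the mitochondrial superoxide dismutase (0.53, adjusted p = 0.013), rose, and SESN3 (-0.88, adjusted p = 0.031) fell.

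PDK4, the kinase that shuts off pyruvate dehydrogenase, stood at 2.05, 2.05, 3.89, 3.77 and 2.14 CPM at day 9 and 0.859, 0.969, 6.63, 5.83 and 3.76 CPM at day 11. PIK3IP1, an inhibitor of PI3 kinase, stood at 6.37, 6.94, 5.51, 6.31 and 6.07 and 3.20, 3.09, 9.30, 7.48 and 6.21 CPM. For both genes wells 1 and 2 of day 11 were below day 9 and wells 5 and 6 above it. The log2 change of PDK4 was 0.38, adjusted p = 0.71, and that of PIK3IP1 -0.09, adjusted p = 0.92.

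The promoter of TXNIP is shown because this gene fell in a list that changed in both directions. With all wells BCL6 and ERBB3 fell too, and TRIM63 rose. The promoter of LDHA is shown because this gene alone of its list rose with all wells. Each runs from 250 bases before to 50 after the start of the gene, 5′ to 3′ on the gene's strand, from RefSeq on GRCh38.p14. Of 72 genes named by rule 56 were found in that table, and where it lists several starts the first was taken. In TXNIP (chr1:145996530-145996829, minus strand) capitals mark GTAAACA, the core that forkhead factors such as FOXO bind. It occurs 1 time, from 124 bases before the start. In LDHA (chr11:18394313-18394612, plus strand) capitals mark CACGTG, the E-box of MYC-type factors, which reads the same on both strands and begins 185 and 87 bases before the start.
TXNIP: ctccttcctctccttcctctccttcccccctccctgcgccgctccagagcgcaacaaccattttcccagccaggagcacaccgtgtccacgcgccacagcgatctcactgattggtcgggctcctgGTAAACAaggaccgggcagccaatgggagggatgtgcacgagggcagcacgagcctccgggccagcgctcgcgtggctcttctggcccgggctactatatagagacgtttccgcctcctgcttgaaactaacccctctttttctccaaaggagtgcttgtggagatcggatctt
LDHA: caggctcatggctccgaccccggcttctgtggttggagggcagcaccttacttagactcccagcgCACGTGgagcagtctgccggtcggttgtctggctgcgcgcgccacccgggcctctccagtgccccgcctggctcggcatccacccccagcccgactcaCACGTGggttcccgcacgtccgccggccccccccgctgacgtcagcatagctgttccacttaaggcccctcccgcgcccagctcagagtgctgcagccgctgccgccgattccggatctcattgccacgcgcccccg

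Searched on both strands, GTAAACA or its complement TGTTTAC was in 3.42% of all 35116 promoters of this length and in 2 of the 15 FOXO target promoters in the table. CACGTG was in 7.26% of all promoters and in 3 of the 21 glycolysis promoters. A match describes the letters only, and binding was not measured.

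Among metabolic genes, 1 of glucose use and 3 of fatty acid oxidation rose, and no gene of lipid synthesis passed the test. LDHA, the enzyme that makes lactate, stood at 912, 574, 713, 608 and 755 CPM at day 9 and 1572, 1374, 1416, 1413 and 1583 CPM at day 11. All 5 day 11 wells were alike and above day 9, and LDHA rose 2.07-fold (log2 change 1.05 ± 0.20 (SE), adjusted p = 0.0016; with RIN of at least 9, 1.05, adjusted p = 0.0081). It was the only 1 of 24 glycolysis and glucose uptake genes to rise, and 0 fell, although 21 had a positive log2 change and the median was 0.40.

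For the high-RIN wells, 5 of the 24 rose with a list median of 0.54. These were LDHA, SLC2A4, the insulin-responsive glucose transporter (log2 change 1.57, adjusted p = 0.002), ENO3, the muscle enolase (1.42, adjusted p = 0.0035), PGAM2 (1.19, adjusted p = 0.032) and GPI (0.75, adjusted p = 0.021). SLC2A4 stood at 12.6, 11.2, 14.7, 15.6 and 19.7 CPM at day 9 and 5.10, 4.11, 48.6, 39.3 and 43.4 CPM at day 11. Day 11 wells 1 and 2 lay under every day 9 well and wells 5, 6 and 7 more than 2-fold above the day 9 mean of 14.8.

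Of 26 genes of fatty acid uptake and oxidation 3 rose and 0 fell, with a median log2 change of 0.15. They were FABP3, the fatty acid binding protein of heart (0.87, adjusted p = 0.029), ETFDH, which passes electrons from fatty acid oxidation to the respiratory chain (0.61, adjusted p = 0.0041), and ACADM, the medium-chain acyl-CoA dehydrogenase (0.47, adjusted p = 0.028). In the high-RIN wells, FABP3 (1.23, adjusted p = 0.0018) and ETFDH (0.71, adjusted p = 0.0032) rose, CPT1A, the gate of fatty acid entry into mitochondria (1.26, adjusted p = 0.00014), and the receptor ESRRA (0.92, adjusted p = 0.031) rose as well, and ACADM missed the threshold (0.36, adjusted p = 0.2).

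Of 32 nuclear genes of the respiratory chain 1 rose, the complex I subunit NDUFS1 (0.34, adjusted p = 0.026), and 31 had a positive log2 change, with a median of 0.23. Among the high-RIN wells, NDUFS1, COX6A2, the muscle form of a cytochrome oxidase subunit (1.31, adjusted p = 0.04), COX5A (0.62, adjusted p = 0.026) and SDHA (0.63, adjusted p = 0.02) rose. None of the 13 mitochondrially encoded genes rose or fell in either set of wells, with medians of 0.38 and -0.07. Their share of all counts was 0.50, 0.20, 0.41, 0.37 and 0.28% at day 9 and 0.88, 0.43, 0.37, 0.53 and 0.35% at day 11. The means were 0.35 ± 0.12% and 0.51 ± 0.22% (SD, n = 5 and 5; two-sided exact permutation test, p = 0.183, 0.365 adjusted over 4 single-value tests). Well 1 of day 11 held the highest share.

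Of 25 genes of cholesterol synthesis and uptake and 12 tested of 13 genes of fatty acid synthesis, 0 rose and 0 fell with all wells. Their median log2 changes were 0.11 and -0.001 with all wells, and -0.25 and -0.35 with RIN of at least 9.

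Contractile genes mostly had positive log2 changes, and few passed the test. Of 35 sarcomere genes 1 rose with all wells, NEBL, a Z-disc protein (log2 change 0.82, adjusted p = 0.024), and 30 had a positive value, with a median of 0.40. With RIN of at least 9, NEBL, TNNI3 and MYOZ2, a calcineurin-binding Z-disc protein (1.32, adjusted p = 0.027), rose, and the median was 0.72. TNNT2, the cardiac troponin T that defines cardiomyocytes, stood at 1057, 641, 1033, 905 and 1344 CPM at day 9 and 1011, 648, 1639, 1629.8 and 1645 CPM at day 11. NKX2-5, a homeobox factor of heart progenitors, stood at 149, 91.8, 76.4, 115 and 182 and 85.5, 50.05, 232, 215 and 231 CPM. Both genes were present in all 10 wells, at their lowest in well 2 of each day or, for NKX2-5 at day 9, in well 3, and neither passed the threshold in either set of wells.

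With all wells the balance of troponin I forms did not separate the days. The log2 ratio of TNNI3 to TNNI1, the fetal form, on TPM, a level scaled for transcript length, was -3.92, -3.85, -4.02, -3.30 and -3.58 at day 9 and -4.65, -5.13, -2.94, -2.95 and -2.70 at day 11. Wells 5, 6 and 7 of day 11 had the highest and wells 1 and 2 the lowest of the 10 ratios. The means were -3.74 ± 0.29 and -3.67 ± 1.13 (SD, n = 5 and 5; exact permutation p = 0.913, 0.913 adjusted over 4). The log2 ratio of the myosin heavy chains MYH7 to MYH6, which are near-identical neighbours, was -6.02 ± 0.99 and -5.67 ± 1.23 (SD, n = 5 and 5; exact permutation p = 0.651, 0.868 adjusted over 4). The smallest p that 5 against 5 wells can give is 0.00794. In the high-RIN wells the day difference of the log2 TNNI3 to TNNI1 ratio was 0.80 (exact permutation p = 0.057, not adjusted). That of MYH7 to MYH6 was 1.14 there (exact permutation p = 0.23, not adjusted).

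Of 20 genes of calcium handling 2 rose and 0 fell with all wells, TECRL and CACNA2D1, a calcium channel subunit (0.75, adjusted p = 0.03), and the median log2 change was 0.37. For the high-RIN wells the median was 0.74 and 4 rose. These were TECRL, SLC8A1, the sodium-calcium exchanger (1.25, adjusted p = 0.012), CACNA1C, the pore of the L-type calcium channel (1.10, adjusted p = 0.017), and its partner CACNB2 (0.87, adjusted p = 0.03). CACNA2D1 was highest in day 11 wells 1 and 2 (45.1, 53.5, 22.6, 29.7 and 30.5 CPM in the 5 wells) and missed the threshold with RIN of at least 9 (0.35, adjusted p = 0.45).

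Of 24 genes of ion channels and excitability 1 rose, ANK2, an anchor of channels in the membrane (0.62, adjusted p = 0.027). In the high-RIN wells, ANK2, HCN4, the pacemaker channel (1.34, adjusted p = 0.0055), CACNA1G, a T-type calcium channel (1.14, adjusted p = 0.045), and KCNH2, a repolarising potassium channel (0.73, adjusted p = 0.028), rose, and KCND3 (-2.07, adjusted p = 0.019) fell. HCN4 stood at 82.7, 54.6, 72.5, 79.00 and 80.2 CPM at day 9 and 90.4, 53.97, 167, 196 and 200.1 CPM at day 11, with wells 5, 6 and 7 more than 2-fold above every day 9 well and wells 1 and 2 near the day 9 range. Of 9 natriuretic peptide and other secreted cardiac genes 0 rose and 0 fell in either set of wells.

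Among 27 cardiac transcription factors 2 rose and 2 fell with all wells. TBX18 rose as described, and IRX4, a factor of the ventricle, stood at 46.03, 31.1, 25.8, 38.5 and 46.9 CPM at day 9 and 48.9, 27.9, 93.95, 90.1 and 85.97 CPM at day 11. IRX4 rose (log2 change 0.88 ± 0.24 (SE), adjusted p = 0.035), and day 11 wells 1 and 2 lay within or near the day 9 range. TBX3, a transcriptional repressor made in the conduction system, stood at 89.6, 96.7, 142, 150.0 and 94.7 and 41.5, 37.5, 50.3, 41.7 and 34.2 CPM and fell in all 5 wells (log2 change -1.48 ± 0.24 (SE), adjusted p = 0.00018; with RIN of at least 9, -1.36, adjusted p = 0.0055). TBX1, a factor of the pharyngeal heart field, fell from 3.14 ± 1.74 to 0.847 ± 0.250 CPM (SD, n = 5 and 5; log2 change -1.89, adjusted p = 0.033) and missed the threshold with RIN of at least 9 (adjusted p = 0.1). There TBX18, IRX4, HEY2, a transcriptional repressor made in the ventricle and a Notch target (0.98, adjusted p = 0.042), and MEF2A (0.75, adjusted p = 0.026) rose and TBX3 fell.

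Notch signalling, in which a ligand on one cell frees the receptor's inner domain on its neighbour to bind RBPJ, had a ligand, a modifier and a target lower at day 11. Of 24 listed genes 23 were tested, 3 fell and 0 rose, with a median log2 change of -0.24, beside 2.19% of all genes that fell. HES1, given beforehand as a marker, is among the 3. DLL1, the ligand, stood at 17.8, 16.7, 23.6, 33.1 and 14.2 CPM at day 9 and 4.82, 3.74, 6.39, 6.54 and 6.25 CPM at day 11. LFNG, the glycosyltransferase that tunes the receptor, stood at 13.1, 14.04, 21.00, 23.1 and 16.7 and 3.15, 2.72, 6.07, 5.74 and 3.87 CPM. Both were lower in all 5 day 11 wells, and lowest in wells 1 and 2. DLL1 fell 3.79-fold (log2 change -1.92 ± 0.31 (SE), adjusted p = 0.00018) and LFNG fell 4.07-fold (log2 change -2.03 ± 0.43 (SE), adjusted p = 0.0048). Among the high-RIN wells, DLL1 (-1.68, adjusted p = 0.007) and HES1 fell, HEY2 rose, and LFNG missed the threshold (-1.68, adjusted p = 0.06).

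The promoter of HES1 (chr3:194135898-194136197, plus strand, RefSeq on GRCh38.p14) is shown because it carries the letters through which Notch is known to act. Capitals mark TGGGAA, the core that RBPJ binds, which occurs 2 times on the gene's strand, from 84 and 70 bases before the start.
HES1: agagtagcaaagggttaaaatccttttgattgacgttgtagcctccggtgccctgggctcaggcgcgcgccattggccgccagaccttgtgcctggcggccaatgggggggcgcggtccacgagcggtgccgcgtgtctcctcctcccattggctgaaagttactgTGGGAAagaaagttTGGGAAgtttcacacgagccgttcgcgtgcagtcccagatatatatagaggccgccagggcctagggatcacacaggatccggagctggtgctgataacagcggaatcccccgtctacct

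TGGGAA or its complement TTCCCA was in 24.03% of all 35116 promoters and in 6 of the 19 Notch list promoters in the table.

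Of the 3 genes of the apelin receptor axis APELA fell, and the receptor APLNR stood at 45.9, 60.3, 45.6, 31.3 and 24.9 CPM at day 9 and 27.2, 38.3, 13.5, 13.7 and 20.5 CPM at day 11. APLNR missed the threshold with all wells (-0.88, adjusted p = 0.1) and fell with RIN of at least 9 (-1.35, adjusted p = 0.02). Of 25 Wnt targets and antagonists 1 fell, SP5, a direct Wnt target (-1.82, adjusted p = 0.0037; with RIN of at least 9, -1.44, adjusted p = 0.043). SP5 stood at 5.46, 4.44, 5.47, 4.98 and 6.37 CPM at day 9 and 1.19, 0.461, 2.48, 2.49 and 0.932 CPM at day 11. Of 19 BMP pathway and ID genes 1 fell, ID1, a BMP-induced inhibitor of differentiation factors. ID1 stood at 237, 239.7, 209, 207 and 297 CPM at day 9 and 58.4, 55.1, 125, 107 and 113 CPM at day 11 and was low in every day 11 well (log2 change -1.37 ± 0.27 (SE), adjusted p = 0.0021; with RIN of at least 9, -1.09, adjusted p = 0.031).

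Of 25 genes of FGF ligands and ERK feedback 1 rose and 2 fell. FGF9, a ligand made by epicardium and endocardium, rose from 0.922 ± 0.275 to 2.49 ± 0.685 CPM (SD, n = 5 and 5; log2 change 1.43, adjusted p = 0.0088). DUSP6, a phosphatase that ERK induces against itself, stood at 184, 153, 196, 190.2 and 178 CPM at day 9 and 54.9, 54.3, 94.8, 92.98 and 95.02 CPM at day 11. It fell with all wells (log2 change -1.20 ± 0.26 (SE), adjusted p = 0.0061) and missed the threshold with RIN of at least 9 (-0.90, adjusted p = 0.091), although no day 11 well reached the day 9 range. ETV4, an ERK-induced factor, fell in both sets (-1.04, adjusted p = 0.005, and -0.91, adjusted p = 0.044 with RIN of at least 9). The receptor FGFR4 missed the threshold with all wells (-1.16, adjusted p = 0.14) and fell with RIN of at least 9 (-2.01, adjusted p = 0.017).

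Of 15 retinoic acid genes RDH10, which makes retinaldehyde, rose with all wells (0.94, adjusted p = 0.044; with RIN of at least 9, 0.92, adjusted p = 0.1). With RIN of at least 9, ALDH1A1 fell (-2.30, adjusted p = 0.033). Of 18 immediate early genes, which answer to fresh stimulation, 2 fell and 17 had a negative log2 change, with a median of -0.67. FOS stood at 31.1, 40.8, 34.8, 95.96 and 13.6 CPM at day 9 and 10.2, 13.8, 10.7, 10.9 and 11.4 CPM at day 11 (log2 change -1.92 ± 0.48 (SE), adjusted p = 0.018), and FOSB at 8.19, 8.42, 9.52, 34.8 and 3.38 and 2.00, 1.71, 3.67, 2.54 and 2.73 CPM (log2 change -2.34 ± 0.63 (SE), adjusted p = 0.03). FOS fell also with RIN of at least 9 (-2.05, adjusted p = 0.047), and FOSB missed the threshold there (-2.20, adjusted p = 0.11). Day 9 well 4 was the highest for both genes, and day 9 well 10 lay within or near the day 11 range. Without day 9 well 4 the log2 change was -1.40 for FOS (adjusted p = 0.13) and -1.54 for FOSB (adjusted p = 0.22), both outside the threshold.

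Few genes of the stress lists passed the test. Of 24 tested genes of the ATF4 amino acid response 1 rose, WARS, a tRNA synthetase (1.11, adjusted p = 0.023; with RIN of at least 9, 0.18, adjusted p = 0.81). WARS stood at 24.04, 29.96, 26.5, 29.7 and 34.9 CPM at day 9 and 117, 96.1, 32.8, 33.1 and 34.7 CPM at day 11, so that wells 1 and 2 alone were high. Of 14 genes of the unfolded protein response CRELD2 rose (0.82, adjusted p = 0.018; with RIN of at least 9, 0.37, adjusted p = 0.39), again highest in wells 1 and 2 (19.5, 25.6, 11.8, 13.4 and 12.98 CPM in the 5 wells). Of 17 hypoxia genes 0 passed with all wells, and KDM3A rose with RIN of at least 9 (0.68, adjusted p = 0.037). None of the 38 cytoplasmic ribosomal protein genes passed in either set, with a median log2 change of -0.03 with all wells and 0.11 with RIN of at least 9. None of the 11 HOX genes and none of the 15 D cyclins and CDK inhibitors passed in either set.

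Some genes of the early embryo fell. Of 19 heterochronic and pluripotency genes 3 fell and 0 rose. LIN28A, the RNA-binding protein that holds back let-7 microRNAs, stood at 408, 378, 449, 423 and 465 CPM at day 9 and 237, 220.2, 162, 149 and 139 CPM at day 11 (log2 change -1.23 ± 0.23 (SE), adjusted p = 0.0018; with RIN of at least 9, -1.48, adjusted p = 0.0021). SALL4, a zinc finger factor (-0.90, adjusted p = 0.012), and DPPA4 (-1.01, adjusted p = 0.036) fell with all wells. DPPA4 stood at 17.1, 22.5, 15.2, 11.1 and 12.4 CPM at day 9 and 13.2, 14.3, 3.23, 4.01 and 4.35 CPM at day 11, where wells 1 and 2 lay within the day 9 range. For the high-RIN wells, DPPA4 (-2.03, adjusted p = 1.2e-05), LIN28A and the DNA methyltransferase DNMT3B (-0.56, adjusted p = 0.023) fell, and SALL4 missed the threshold (-0.76, adjusted p = 0.096).

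Among 24 collagen, laminin and matrix genes 1 rose and 2 fell. LAMA2, the laminin chain that surrounds muscle fibres, stood at 42.3, 28.3, 35.5, 31.6 and 36.1 CPM at day 9 and 87.3, 58.3, 89.4, 119 and 84.9 CPM at day 11 (log2 change 1.34 ± 0.25 (SE), adjusted p = 0.0018; with RIN of at least 9, 1.5003, adjusted p = 0.0027). FN1, fibronectin, stood at 9056, 7857, 15208, 16047 and 6636 and 3896, 3603, 4476, 4133 and 2975 CPM and fell in every well (log2 change -1.52 ± 0.29 (SE), adjusted p = 0.0017; with RIN of at least 9, -1.36, adjusted p = 0.022). LAMB1, a laminin chain of early basement membranes, fell with all wells (-0.91, adjusted p = 0.0096) and missed the threshold with RIN of at least 9 (-0.68, adjusted p = 0.12).

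Genes of cell division were high in wells 1 and 2 and low in wells 5, 6 and 7 of day 11. Of 31 mitosis and 31 DNA replication genes 0 rose and 0 fell with all wells, with median log2 changes of -0.15 and 0.07. In the high-RIN wells the medians were -1.05 and -0.75, with 4 mitosis and 3 replication genes lower. Mitosis genes summed to 1609.9, 1634, 1634, 1510.3 and 1382 CPM at day 9 and 2261, 2675, 748, 748 and 852 CPM at day 11. Wells 5, 6 and 7 thus lay below every day 9 well and wells 1 and 2 above every one.

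The mitosis genes that fell with RIN of at least 9 were CENPA, the centromeric histone (-1.53, adjusted p = 0.019), CCNB2, a mitotic cyclin (-1.30, adjusted p = 0.026), and the kinesins CENPE (-1.17, adjusted p = 0.043) and KIF23 (-1.05, adjusted p = 0.011). The replication genes were ORC1 (-1.42, adjusted p = 0.025) and ORC6 (-1.17, adjusted p = 0.00059), subunits of the origin recognition complex, and CCNE1, cyclin E (-1.24, adjusted p = 0.016). CENPE stood at 48.9, 41.3, 56.9, 57.6 and 41.1 CPM at day 9 and 68.4, 84.7, 20.8, 20.1 and 22.1 CPM at day 11. The part of RIN and of the cell mixture in this difference was not tested.

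Of the markers of other cell types, those of endoderm and liver were examined first. Of 25 endoderm and liver genes 4 fell and 0 rose with all wells, the factors FOXA1 (-1.83, adjusted p = 0.003), FOXA2 (-1.57, adjusted p = 0.0043), FOXA3 (-1.20, adjusted p = 0.0067) and HHEX (-2.13, adjusted p = 0.0095). FOXA1 stood at 32.4, 26.6, 47.2, 65.4 and 30.7 CPM at day 9 and 17.5, 16.1, 9.86, 7.26 and 6.25 CPM at day 11. FOXA2 stood at 26.2, 21.98, 35.1, 31.9 and 17.2 and 8.78, 9.92, 12.8, 7.52 and 5.56 CPM, and HHEX at 83.7, 50.2, 125, 155 and 85.5 and 29.4, 18.4, 28.7, 23.7 and 13.6 CPM. These early factors were low in all 5 day 11 wells, wells 1 and 2 included.

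The liver products among the list were low in wells 5, 6 and 7 and high in wells 1 and 2. AFP, the fetal serum protein, stood at 1217, 4221, 917, 175 and 244 CPM at day 9 and 3889.9, 7287, 80.3, 97.03 and 92.9 CPM at day 11. APOA1, a lipoprotein, stood at 300.0, 1341, 163, 35.9 and 56.9 and 378, 801, 32.02, 30.9 and 37.3 CPM. TTR, the thyroxine carrier, stood at 196, 508, 282, 221 and 150.0 and 216, 477, 40.4, 27.9 and 17.5 CPM. Wells 1 and 2 of day 11 lay within or above the day 9 range for each gene, and wells 5, 6 and 7 lay below it, except that APOA1 in well 7 was just inside. With all wells the log2 change was 0.76, adjusted p = 0.76 for AFP, -0.57, adjusted p = 0.76 for APOA1 and -0.80, adjusted p = 0.54 for TTR. The cut on RIN left out day 11 wells 1 and 2, where this list summed to 7821 and 13989 CPM. It also left out day 9 well 3 (3160 CPM) and kept day 9 well 2 (9993 CPM). The part of this choice of wells in the falls given next was not tested. Among the high-RIN wells, 18 of the 25 genes fell and 0 rose, beside 2.66% of all genes that fell there, with a median of -2.34 against -0.56 with all wells. Among them were AFP (-4.02, adjusted p = 0.044), APOA1 (-3.70, adjusted p = 0.015), TTR (-3.23, adjusted p = 0.0032) and the factor HNF4A (-2.83, adjusted p = 0.0077).

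Of 14 endothelial genes 2 fell and 13 had a negative log2 change, with a median of -0.87 (-1.28 with RIN of at least 9). VWF, the clotting factor of vessel walls, stood at 12.4, 17.04, 11.95, 12.98 and 7.36 CPM at day 9 and 2.15, 4.11, 3.71, 3.78 and 3.73 CPM at day 11 (log2 change -1.82 ± 0.34 (SE), adjusted p = 0.0017; with RIN of at least 9, -1.73, adjusted p = 0.014). CDH5, the cadherin of endothelial junctions, stood at 57.7, 51.4, 62.96, 61.9 and 37.3 and 23.4, 25.97, 20.3, 17.7 and 16.9 CPM (log2 change -1.38 ± 0.40 (SE), adjusted p = 0.047), and missed the threshold with RIN of at least 9 (-1.51, adjusted p = 0.086). Endothelial genes summed to 671, 634, 631, 658 and 426 CPM at day 9 and 439, 569, 374, 421 and 408 CPM at day 11, so the sums overlapped although VWF and CDH5 did not.

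Of 10 smooth muscle genes 1 rose, ACTG2, the enteric smooth muscle actin (3.12, adjusted p = 0.019). It stood at 0.796, 0.774, 0.904, 1.07 and 1.58 CPM at day 9 and 18.1, 24.6, 0.559, 0.890 and 0.518 CPM at day 11, high in wells 1 and 2 alone. With RIN of at least 9 its log2 change was -0.69, adjusted p = 0.71. Of 14 epicardial and fibroblast genes TBX18 alone rose. Of 13 tested neural genes STMN2 rose, and with RIN of at least 9 TUBB3 (-1.19, adjusted p = 0.046), DCX (-1.79, adjusted p = 0.041) and ELAVL4 (-2.25, adjusted p = 0.039), all neuronal, fell. Of 10 tested blood and macrophage genes 0 passed with all wells, and the embryonic globin HBE1 fell with RIN of at least 9 (-4.38, adjusted p = 0.00068). HBE1 stood at 3.18, 13.4, 2.04, 1.399 and 0.984 CPM at day 9 and 9.16, 37.2, 0.200, 0.267 and 0.207 CPM at day 11. The blood sums ran from 17.7 to 46.9 CPM at day 9 and from 11.7 to 63.1 CPM at day 11.

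With all wells, 17 of the 36 lists had at least 1 member that rose, 13 had at least 1 that fell and 11 had none of either. Of all tested genes 1.2% rose and 2.19% fell, which are shares of genes and not of lists. A list holds many genes, so at these same shares a larger part of lists has at least 1 such member. Whether the counts of lists differ from what these shares give was not tested.

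**Figure D4:**
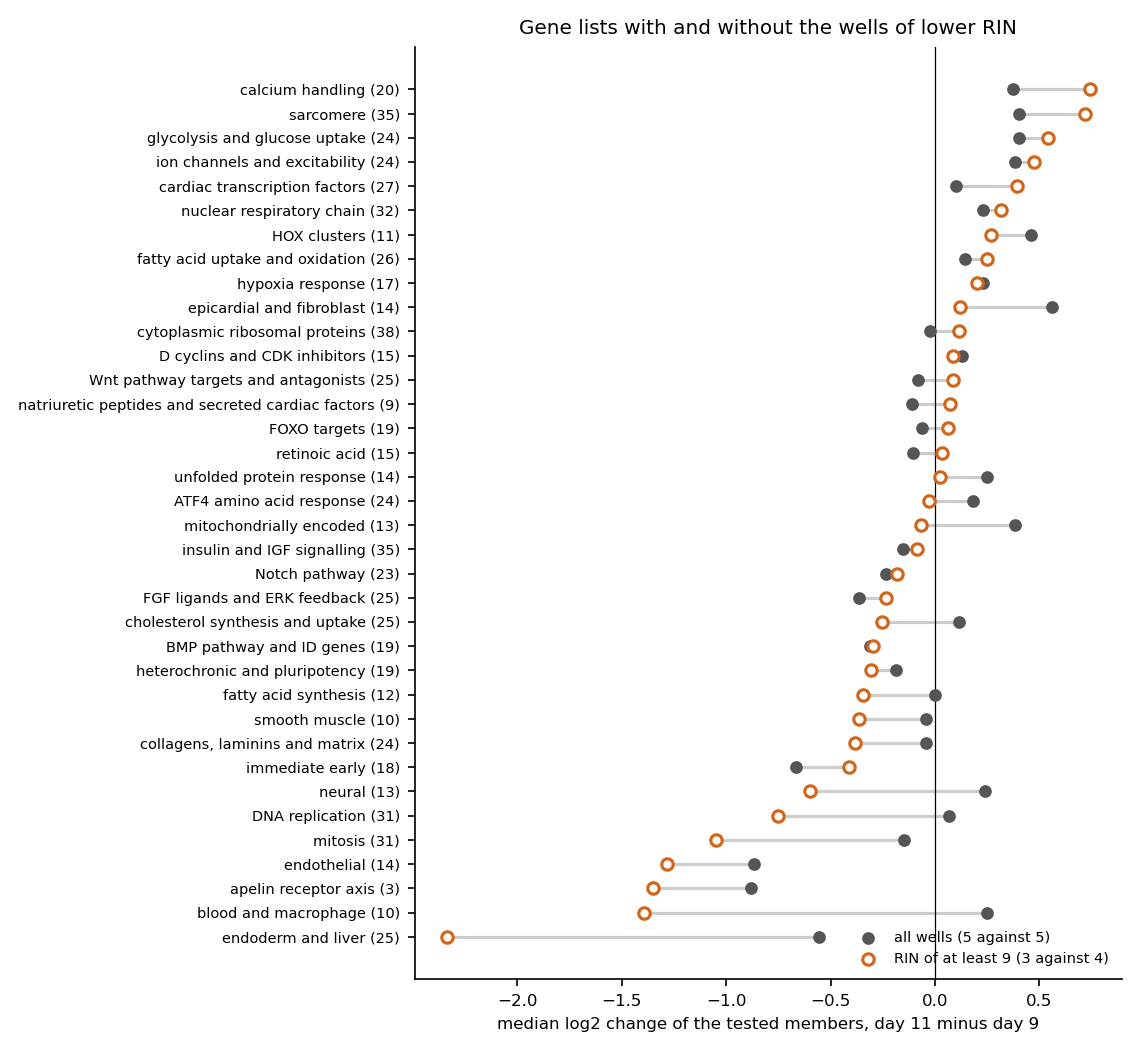
Median log2 change, day 11 minus day 9, of the tested members of each gene list (number tested in brackets) with all wells (dark) and with RIN of at least 9 (open orange). The endoderm and liver, blood, mitosis and DNA replication lists lie lower with RIN of at least 9 than with all wells, the first at -2.34 against -0.56, and calcium handling (0.74) and sarcomere (0.72) stand highest there.

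Whether a change began across the switch was asked by comparing the step from day 9 to 11 with the equally long step from day 7 to 9, where no supplement changed. The 2 steps share the day 9 wells, so a high day 9 value lowers the difference of steps. The difference was called for 40 genes (0.174%), 1 positive (0.00436%) and 39 negative (0.17%). Leaving out 1 day 9 well changed this count by more than 1.5 times, to 17 without well 3 and to 8 without well 4, and without day 11 wells 1 and 2 it was 160.

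PLPPR1 averaged 7.90, 24.1, 29.7 and 4.08 CPM at days 5, 7, 9 and 11. The difference of its steps was -3.16 ± 0.38 (SE), adjusted p = 1.4e-05, and its mean had been higher at each day up to day 9. SPTSSB averaged 3.12, 19.3, 45.7 and 7.16 CPM at those days, with a difference of steps of -3.92 ± 0.69 (SE), adjusted p = 0.0047. DLL1 averaged 14.8, 21.1 and 5.55 CPM at days 7, 9 and 11 (-2.44 ± 0.49 (SE), adjusted p = 0.017), and BCL6 29.9, 38.4 and 12.5 CPM (-1.98 ± 0.35 (SE), adjusted p = 0.0049). These 4 genes fell between day 9 and day 11 after a step in which their means were higher at day 9 than at day 7.

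IRX4 had higher means at each step, from 4.23 to 37.7 and 69.4 CPM, and the first step was the larger, so the difference was negative (-2.27 ± 0.41 (SE), adjusted p = 0.0069). Among protein-coding genes with a mean of at least 5 CPM at the higher day, the largest negative differences were those of ADH1B, an alcohol dehydrogenase (-6.06 ± 1.01 (SE), adjusted p = 0.0032), LIPH, a phospholipase (-4.62 ± 1.02 (SE), adjusted p = 0.038), and SPTSSB. ADH1B averaged 0.312, 14.8 and 10.2 CPM at days 7, 9 and 11, a high level that came before day 9, and its day 11 against day 9 change missed the threshold (-0.54, adjusted p = 0.68). LIPH stood at 1.63, 1.62, 3.42, 16.7 and 6.93 CPM at day 9, with wells 4 and 10 the highest. The only positive call was HNRNPM, a splicing factor, with 77.2, 58.3 and 116 CPM (1.39 ± 0.32 (SE), adjusted p = 0.047). It stood at 167, 151, 78.3, 87.6 and 94.1 CPM at day 11, highest in wells 1 and 2, and its day 11 against day 9 change missed the threshold with RIN of at least 9 (0.55, adjusted p = 0.071).

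For the marker genes TECRL, HES1 and APELA the difference of steps did not pass the threshold. It was 1.37 ± 0.50 (SE), adjusted p = 0.5 for TECRL, which averaged 96.6, 105 and 295 CPM at days 7, 9 and 11. For HES1, with 76.7, 65.5 and 23.7 CPM, it was -1.24 ± 0.33 (SE), adjusted p = 0.16, and for APELA it was -1.71 ± 0.76 (SE), adjusted p = 0.74. LDHA averaged 412, 712 and 1472 CPM (0.26 ± 0.34 (SE), adjusted p = 1).

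At the later days the means of TECRL, HES1, DLL1 and PLPPR1 lay further from day 9 than at day 11. TECRL averaged 405 CPM at day 14 and 504 at day 20, and HES1 averaged 21.4 and 14.2. DLL1 averaged 3.40 and 2.66 CPM and PLPPR1 2.56 and 2.01, from 3 wells at each of these days. LDHA averaged 1229 and 1333 CPM, with SDs of 355 and 376.

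**Figure D5:**
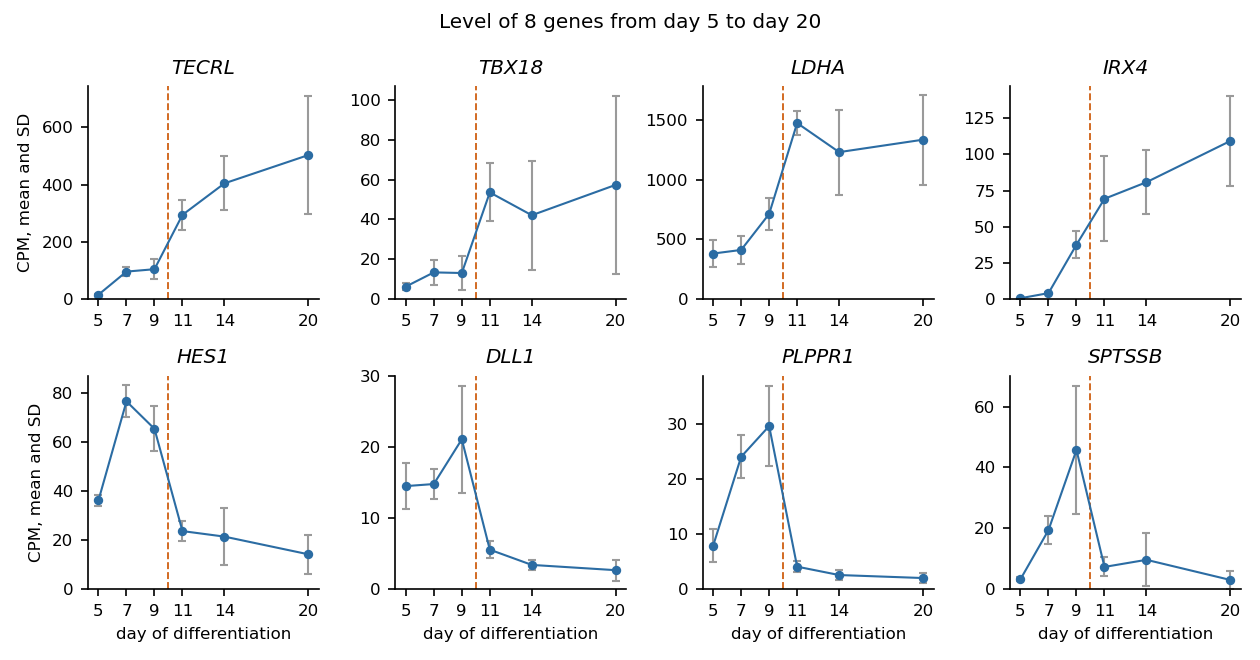
Mean CPM (points) and SD (bars) of 8 genes at days 5, 7, 9 and 11 (5 wells each) and days 14 and 20 (3 wells each); the dashed line marks day 10, after which the supplement was changed. HES1, DLL1, PLPPR1 and SPTSSB drop between day 9 and day 11, and TECRL, TBX18, LDHA and IRX4 are higher at day 11 than at day 9.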

How the data were processed

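RNA of single wells was read as stranded total RNA libraries (150-base paired reads, 700 ng input), per the labels' protocols. The authors deposited estimated counts per gene, which need not be whole (93.8% were), and TPM; the annotation and the strand setting behind them are not given in the sources used here. Cutadapt, STAR 2.5.2b, RSEM 1.2.31 and hg38 stand in the submitters' processing notes. RIN scores come from the authors' deposited sample table. Gene positions come from GENCODE 29, which matched 56769 of the 60499 identifiers.

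Estimated counts were rounded and fitted in edgeR 4.0.16 (R 4.3.3) by the quasi-likelihood test with TMM scaling, 1 mean per group over all 44 libraries, after its default filter on low counts. CPM were computed from these counts. The difference of steps is a contrast of that fit. The 4 single values were compared by two-sided exact permutation tests. Alternatives used DESeq2 1.42.0, limma 3.58.1 on log2(TPM + 1) and log2(TPM + 0.1), other filters and scaling, RIN or lane as covariates, and fewer wells. On simulated counts of 22955 genes made for the day 11 against day 9 comparison, 69% of 100 genes changed 2-fold and 93% of 100 changed 4-fold passed the adjusted p, as did 5 unchanged genes. The changed genes were drawn only from those with higher counts. All wells of a day were simulated around 1 mean, without the division of wells within day 11. The rates therefore cover neither genes with few counts nor that division. With 18014200 to 31323300 counts per library, 3 counts are 0.0976 to 0.143 CPM, and these limits cover counting error only.

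Genes were named by rule when they were among the 10 largest rises or falls under the conditions given, among up to 3 risen and 3 fallen members of a list, among the 3 largest differences of steps in each direction, or among TECRL, HES1, APELA, TNNI3, INSR, IGF1R, IRS1, IRS2, IGF2, PDK4, TXNIP and PIK3IP1. The others, among them KIT, MLIP, DRD1, FOXA3, TNNT2, NKX2-5, AFP, APOA1, TTR, CENPE and the list members that passed in the high-RIN wells alone, were chosen after their values were seen, as were PLPPR1, DLL1, BCL6 and IRX4 as examples of steps. The comparison, its members and the 36 lists were chosen with earlier results of these data known. List members with too few counts to be tested were G6PC, THRSP, HES5, FGF21, NEUROG1, HBG1 and HBZ. Some results are not reported here.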

Additional observations from a re-analysis of the deposited data

Results flagged for a closer look

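In 5 of 152 groups of 5 wells examined, 1 well lay apart from the other 4 by more than Dixon's limit, and chance alone gives about 1 in 20. FOSB stood at 34.8 CPM in day 9 well 4. MUSTN1, a small nuclear protein of muscle, stood at 15.1 CPM in day 9 well 2. STMN2 stood at 1.08 CPM in the same well. TBX18 stood at 79.3 CPM in day 11 well 7, and VWF at 2.15 CPM in day 11 well 1.

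The step from day 9 to day 11 differed from the step from day 7 to day 9 in the contrast that tests this difference. It was -6.06 (log2) for ADH1B, -4.62 for LIPH, -3.92 for SPTSSB and 1.39 for HNRNPM, and the 2 steps share the day 9 wells.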

How the results depend on the processing

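With all wells 375 genes were called (91 higher, 284 lower), and 778 passed at any fold. Calls numbered 635 (170 higher, 465 lower) with RIN of at least 9, 996 (302 and 694) when only days 9 and 11 of those wells were fitted, and 862 (240 and 622) without day 11 wells 1 and 2, an alternative chosen after seeing the data. At any fold the last 2 gave 2164 (843 higher, 1321 lower) and 1552 (650 and 902). DESeq2 called 164 higher and passed 1510 at any fold (713 and 797). Limma on log2(TPM + 1) called 13 (8 and 5) and passed 16 (11 and 5), and on log2(TPM + 0.1) called 12 (8 and 4) and passed 13 (9 and 4). With no filter 493 passed (148 higher), and with a mean of at least 1 CPM 516 were higher. The difference of steps gave 93 calls with RIN of at least 9, 160 without day 11 wells 1 and 2, and 78 in DESeq2. The causes were not tested.

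Leaving out 1 well gave 203 to 439 calls (48 to 126 higher, 151 to 331 lower), 335 to 968 genes at any fold (110 to 373 higher, 224 to 595 lower) and 8 to 46 differences of steps. The count of calls moved by over 1.5 times without day 9 well 3 (210), day 9 well 4 (203) and day 11 well 7 (221), and the count at any fold also without day 11 well 6 (502). The day difference of the log2 TNNI3 to TNNI1 ratio ran from -0.18 to 0.43, that of MYH7 to MYH6 from 0.029 to 0.74, that of the mitochondrial share from 0.0669 to 0.201 percentage points and that of RIN from -0.760 to -0.365. Log2 changes that crossed 0 ran from -0.38 to 1.84 for AFP, -1.67 to 0.88 for APOA1, -0.79 to 2.30 for HBE1, -0.38 to 0.19 for IGF2, -1.05 to 0.014 for KCND3, -0.30 to 0.25 for KIF23, -0.32 to 0.071 for PIK3IP1 and -0.51 to 0.048 for TUBB3.

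Other log2 changes took the opposite sign. With RIN of at least 9 they were -0.69 for ACTG2, -4.02 for AFP, -4.38 for HBE1, 0.25 for IRS2, -1.05 for KIF23 and 0.26 for PIK3IP1. With only days 9 and 11 of those wells fitted they were -0.70 for ACTG2, -4.05 for AFP, -4.41 for HBE1, 0.23 for IRS2, -1.06 for KIF23 and 0.24 for PIK3IP1, and without day 11 wells 1 and 2 -0.65 for ACTG2, -3.91 for AFP, -4.21 for HBE1, 0.26 for IRS2, -1.04 for KIF23 and 0.30 for PIK3IP1. RIN as a covariate gave -0.25 for HBE1, -0.033 for KIF23, 0.038 for PIK3IP1 and 0.075 for TUBB3, lane as a covariate -0.11 for AFP and -0.074 for KIF23, limma on log2(TPM + 1) -0.60 for AFP, 0.0085 for IGF2, -0.033 for KIF23 and -0.0099 for PDK4, and on log2(TPM + 0.1) -0.62 for AFP, -0.48 for HBE1, 0.0080 for IGF2 and -0.11 for KIF23.

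The 2 days share well numbers 1 and 2 only, and the labels do not say that a number pairs wells. The correlation of deviations from the group means was -0.009 for number 1 and 0.539 for number 2. A replicate block over these numbers gave 427 calls (126 higher, 301 lower), 945 genes at any fold (390 and 555) and 72 differences of steps, and 49 of the 63 genes named by rule that passed still did. It turned the log2 change of CCNB2 to 0.024, CENPA to 0.044, CENPE to 0.33, COX6A2 to -0.12, ESRRA to -0.092, IGF2 to 0.13, NKX2-5 to -0.26, PDK4 to -0.65, TNNI3 to -0.082 and TUBB3 to 0.16.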
